A study of Brassica napus with 12 samples.

Results

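The comparison set the rapeseed (Brassica napus) lines A28 and SW against the lines R8Q10 and YH25005. It used all 12 libraries of the series, 6 on each side and 3 per line, and the 43708 of 50338 listed genes that were present in every file. The groups were immature seeds of A28, SW, R8Q10 and YH25005, all inbred lines grown in 1 experimental field, bagged for selfing and collected 24 days after pollination with no further treatment. The tissue is labelled as seeds while the extraction protocol names embryos, which leaves it unknown whether seed coat or endosperm RNA is included. The series concerns high and low linolenic acid, but the trait of each line is not stated in the sources used here. Whether this division is the linolenic acid contrast is therefore unknown, and the lines go by their names alone. Nothing in the labels says whether the 3 libraries of a line came from separate plants, so p-values measure the spread between libraries, which may be technical.

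Linolenic acid is the omega-3 fatty acid of seed oil. In developing seeds the desaturase FAD2 makes linoleic acid from oleic acid and FAD3 makes linolenic acid from linoleic acid, and the products are stored in triacylglycerol. Rapeseed carries the A and C genomes of its parent species. Most genes therefore come with a homoeologue, a near-identical copy on the other subgenome, and segments of one subgenome can be lost or replaced by their homoeologous segment. The files pair the gene IDs with no symbols. The reference table matched 1934 of the tested IDs and gave a name to 2 of them, and 0 symbols of the fatty acid, oil, storage protein, seed coat, endosperm and embryo lists could be matched, so neither the desaturases nor the tissue make-up could be read and genes are given by ID.

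Both genes with a reference name were measured, and neither differed in the averaged contrast. BnaA02g32290D (KCP1) stood at 11.1, 9.94 and 10.1 CPM (read counts scaled to library size) in A28 and 7.38, 10.4 and 7.18 CPM in SW, against 11.9, 11.3 and 17.6 CPM in R8Q10 and 13.1, 9.77 and 11.2 CPM in YH25005. Its log2 fold change between the sides was -0.42 ± 0.16 (SE; edgeR adjusted p = 0.0706). DESeq2 put it just past the threshold (adjusted p = 0.0453), as did edgeR without SW replicate 2 (adjusted p = 0.0391). BnaCnng15100D (TR1) had a log2 fold change of 0.35 ± 0.20 (SE; edgeR adjusted p = 0.209).

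Library totals ran from 30150457 to 40762254 counts. Within lines, correlations of log2 CPM across genes were lowest in A28 (0.798 to 0.899) and highest in YH25005 (0.939 to 0.952). A28 and R8Q10 share 1 gene list and SW and YH25005 another, which the authors filtered separately. The contrasts A28 minus R8Q10 and SW minus YH25005 therefore lie within a list, share no library and are given apart throughout.

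A large part of the transcriptome differed between the sides on average, and a smaller part passed the test in each pair of lines taken by itself. The contrast of the mean of A28 and SW with the mean of R8Q10 and YH25005 passed, with the same sign in both pairs, for 11681 of 43708 genes (26.7%; edgeR quasi-likelihood test, Benjamini-Hochberg adjusted p under 0.05). Of these, 6378 (14.6%) were higher and 5303 (12.1%) lower in A28 and SW. On its own, A28 minus R8Q10 passed for 21.7% of all genes and SW minus YH25005 for 26.7%. Among the 11681 genes, 22.8% passed in both pairs, 26% in A28 minus R8Q10 only, 36.7% in SW minus YH25005 only and 14.6% in neither. Passing in 1 pair and not in the other does not show that the pairs differ. The test of that difference, A28 minus R8Q10 against SW minus YH25005, passed for 24.4% of the 11681 genes and for 32.4% of the 7320 that passed in 1 pair only, where it passed for 20.7% of all tested genes.

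The share that passed in both pairs was larger where the difference was larger. It was 16.4% of the 7223 genes with moderate differences of 1.5-fold to 4-fold, 42.7% of the 1837 genes with 4-fold to 16-fold differences and 50.1% of the 1367 genes above 16-fold. A larger average of the pairs passes a fixed threshold in each pair more readily, so this rise follows in part from the grouping. Among moderate genes 39.9% passed in SW minus YH25005 and missed the threshold in A28 minus R8Q10, and 27.2% did the reverse. The difference between the pairs passed its own test for 24.1% of these 4850 genes.

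**Figure D1:**
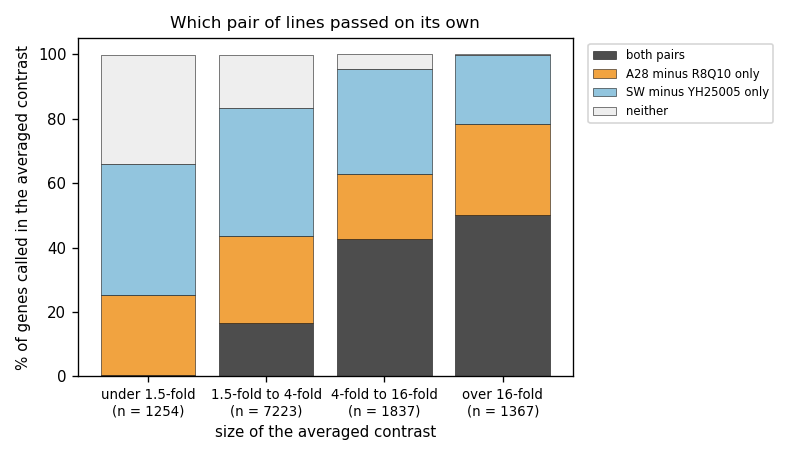
Genes called in the averaged contrast, grouped on the x axis by the size of that contrast, with the y axis giving the percent that passed in both pairs, in 1 pair only or in neither. The dark part, both pairs, is 16.4% for 1.5-fold to 4-fold and 50.1% above 16-fold.

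In both pairs and with the same sign, 2661 genes passed, 6.09% of those tested. Of these, 1490 (3.41%) were higher and 1171 (2.68%) lower in A28 and SW. Another 1205 genes passed in both pairs with opposite signs, so 68.8% of the 3866 genes called in both pairs had the same sign, where 58% of all tested genes did. The 3866 genes made up 40.9% of the A28 minus R8Q10 calls and 33.2% of the SW minus YH25005 calls. Across all 43708 genes the log2 fold changes of the pairs were weakly related (Pearson r 0.12, Spearman rho 0.23), and r was 0.25 over the 32758 genes with at least 1 CPM in all 12 libraries. These correlations are across genes, which are not independent replicates.

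**Figure D2:**
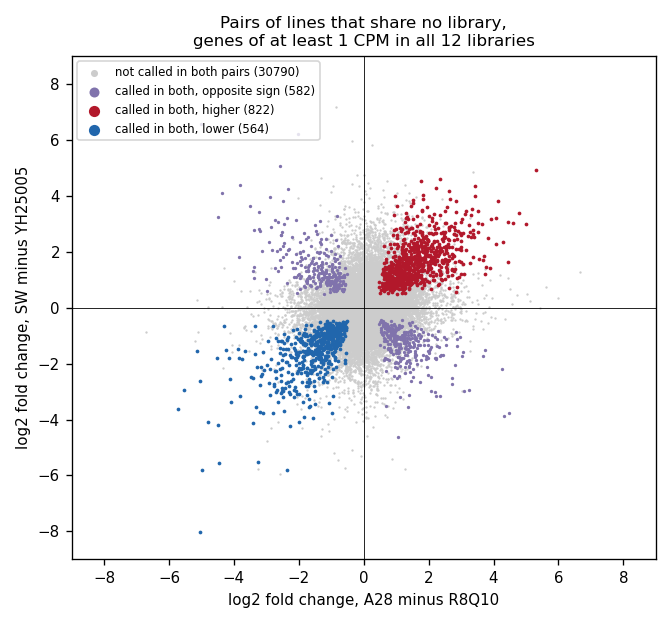
Each point is 1 of 32758 genes with at least 1 CPM in all 12 libraries, with the log2 fold change of A28 minus R8Q10 on the x axis and of SW minus YH25005 on the y axis. Genes called in both pairs lie mostly in the same-sign quadrants, 822 higher in A28 and SW and 564 lower, against 582 with opposite signs.

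The crossed contrasts, A28 minus YH25005 and SW minus R8Q10, pair the lines the other way across the same division and use the same libraries. There 2442 genes passed with the same sign in both, 67.8% of those that passed in both. All 4 contrasts passed with the same sign for 1607 genes (3.68% of those tested), 858 (1.96%) higher and 749 (1.71%) lower. In 2028 of the 2661 genes, 76.2%, the 6 libraries of A28 and SW did not overlap with the 6 of R8Q10 and YH25005, against 8.2% of all tested genes. The genes were called from the same libraries, so this share is a description.

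With each pair of lines fitted alone, 1996 genes passed in both pairs with the same sign, 1779 of them among the 2661. The replicate numbers of A28 and R8Q10 went together in the data, and with the replicate number as a block in the fit of that pair alone, beside SW and YH25005 fitted alone without a block, the count was 3053.

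The division has only 2 lines a side. When the line was taken as the unit, with counts summed per line, 0 genes passed (edgeR, 3200 genes at an unadjusted p under 0.05 with the same sign in both pairs). limma-voom with the line as a random block called 332 genes, 157 higher and 175 lower. A fit without line terms, in which differences between lines of a side count as spread, called 4913. It takes the 6 libraries of a side as replicates, so its unit is the library and not the line. The calls above therefore describe these 4 lines, and what they say of other lines was not tested.

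The excess of higher genes depended in size on the scaling. With library totals alone in place of TMM factors, which are below 1 in YH25005 (0.7662 to 0.9141), the median of all genes shifted to 0.19 on the log2 scale from 0.03, and 1983 genes were higher and 871 lower in both pairs, 69.5% higher where TMM gave 56%.

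Moderate differences were the largest class of genes called in both pairs and were mostly of like size in the pairs. Of the 2661 genes, 1188 (2.72% of those tested) differed by 1.5-fold to 4-fold, 690 (1.58%) higher and 498 (1.14%) lower in A28 and SW. At least 1 CPM in all 12 libraries was reached by 1034 of these, 596 higher and 438 lower. Among the 596, the median log2 fold change was 1.22 in A28 minus R8Q10 and 1.28 in SW minus YH25005. The 438 had medians of -1.19 and -1.18, and all tested genes had 0.06 and -0.00. The pair contrasts of the 1034 genes differed by a median of 0.31 (quartiles 0.13 and 0.58) on the log2 scale, and by less than 0.5 in 711 genes, 68.8%. Both pairs had to pass for a gene to enter, which favours like values.

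Differences between lines of 1 side were found here about as often as among all genes. Of the 1034 genes, A28 minus SW passed for 189 and R8Q10 minus YH25005 for 227. These shares are near the 15.4% and 23.4% of all tested genes for which the same-side contrasts passed. Neither passed for 706 of the 1034, a count with no share over all genes beside it. In 621 of the 1034, 60.1%, the gap between the nearest lines of opposite sides was wider than the difference between the lines of either side. All tested genes gave 12.2%. The 1034 genes were called from the same libraries, which favours a wide gap, so this share is a description. The number of moderate calls moved with single libraries, to 766 without SW replicate 1, 787 without SW replicate 2, 724 without R8Q10 replicate 1, 784 without R8Q10 replicate 3, and 720 and 717 when YH25005 replicate 1 or YH25005 replicate 3 was left out.

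The most abundant moderate genes are given next. These genes, and those named below for 4-fold to 16-fold and above 16-fold, were chosen among genes without overlap between the sides. Their lack of overlap is therefore no finding. BnaA03g10790D, on A3, was read at 537, 638 and 489 CPM in A28 and 1046, 1069 and 649 CPM in SW, against 208, 203 and 221 CPM in R8Q10 and 407, 485 and 436 CPM in YH25005. SW was highest, R8Q10 lowest, and A28 only a little above YH25005. The log2 fold change was 1.40 ± 0.28 in A28 minus R8Q10 (SE; edgeR adjusted p = 0.0043) and 1.06 ± 0.28 in SW minus YH25005 (adjusted p = 0.017). The crossed contrast A28 minus YH25005 gave 0.33 ± 0.28 and did not pass (adjusted p = 0.411).

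BnaC05g20140D, on C5, had the same order of lines. It stood at 535, 566 and 537 CPM in A28 and 924, 924 and 647 CPM in SW, against 188, 130 and 156 CPM in R8Q10 and 338, 457 and 426 CPM in YH25005. Its pair contrasts were 1.79 ± 0.28 for A28 minus R8Q10 and 1.03 ± 0.28 for SW minus YH25005 (SE; edgeR adjusted p = 0.000771 and 0.0174). A28 minus YH25005 was 0.43 ± 0.27 (adjusted p = 0.269). For both of these genes SW minus YH25005 missed the threshold when SW replicate 1, SW replicate 2, YH25005 replicate 1 or YH25005 replicate 3 was left out (adjusted p between 0.0524 and 0.0751).

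The lower genes showed 2 plain levels. BnaC09g43670D, on C9, was at 134, 177 and 117 CPM in A28 and 154, 176 and 91.9 CPM in SW, against 285, 379 and 291 CPM in R8Q10 and 378, 257 and 355 CPM in YH25005. All 4 contrasts between the sides passed, at log2 fold changes between -1.23 and -1.16 (edgeR adjusted p between 0.0122 and 0.0188). A28 minus R8Q10 missed the threshold without A28 replicate 3 (adjusted p = 0.0533) or without R8Q10 replicate 2 (0.0558), and in the fit of that pair alone (0.0532). With library totals as scaling, SW minus YH25005 missed it (0.0504).

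BnaC03g78280D, on C3, was at 240, 104 and 159 CPM in A28 and 197, 180 and 258 CPM in SW, against 521, 339 and 487 CPM in R8Q10 and 456, 465 and 521 CPM in YH25005. The sides did not overlap, as the choice required. Its log2 fold change was -1.42 ± 0.33 in A28 minus R8Q10 and -1.18 ± 0.33 in SW minus YH25005 (SE; edgeR adjusted p = 0.00984 and 0.0216). The second missed the threshold without SW replicate 1 (0.0715), SW replicate 2 (0.0804) or YH25005 replicate 3 (0.0668) and with library totals as scaling (0.0686), and the first in the fit of that pair alone (0.0632).

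**Figure D3:**
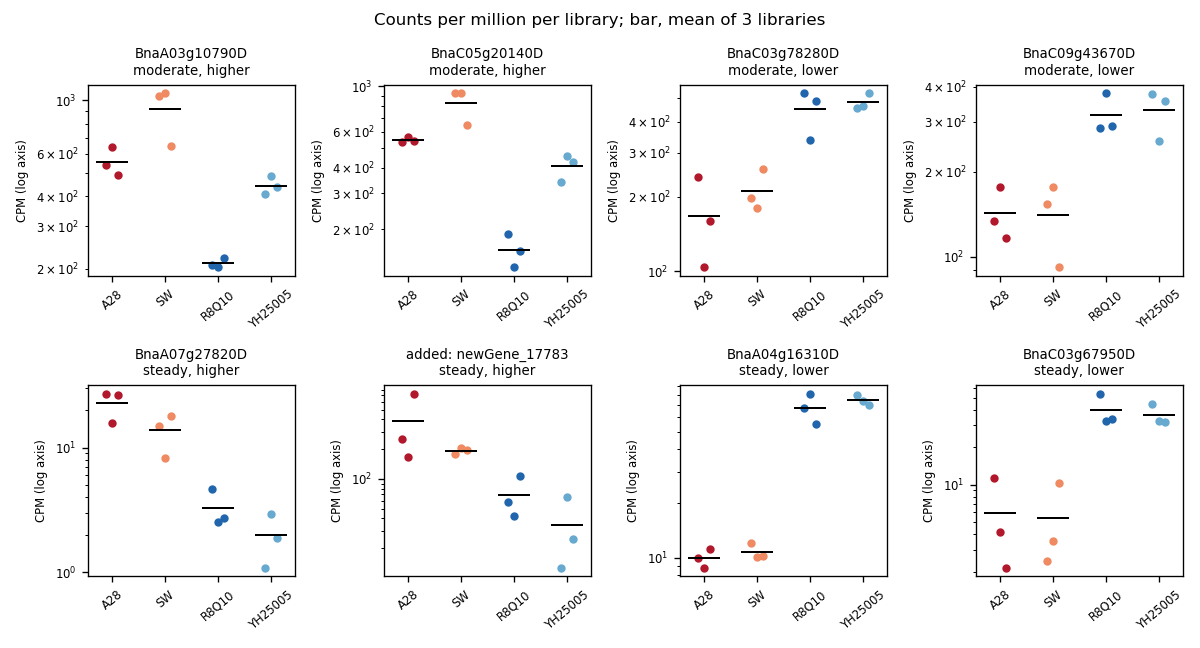
CPM on a log axis for each library of A28, SW, R8Q10 and YH25005 (points, 3 per line) with the line mean (bar), for the most abundant moderate genes (top) and the genes of 4-fold to 16-fold whose pair contrasts were closest (bottom). In every panel the A28 and SW points lie on 1 side of the R8Q10 and YH25005 points, as the choice of these genes required. BnaA04g16310D is the clearest, at 8.83 to 12.1 CPM in A28 and SW and 55 to 81.2 CPM in R8Q10 and YH25005.

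Between 4-fold and 16-fold, 784 genes passed in both pairs, 461 higher and 323 lower, and 336 of them had at least 1 CPM in all 12 libraries. The genes whose pair contrasts were closest in size come next, a likeness that chose them and so supports nothing. BnaA04g16310D, on A4, was at 10, 8.83 and 11.2 CPM in A28 and 12.1, 10.1 and 10.3 CPM in SW, against 67.8, 81.2 and 55 CPM in R8Q10 and 79.8, 74.3 and 69.9 CPM in YH25005. It fell by 2.77 ± 0.14 on the log2 scale (SE; edgeR adjusted p = 2.72e-07).

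BnaC03g67950D, on C3, varied more within lines, at 11.3, 4.18 and 2.16 CPM in A28 and 2.45, 3.53 and 10.3 CPM in SW, against 53.7, 32.3 and 33.6 CPM in R8Q10 and 44.2, 32.2 and 32.1 CPM in YH25005. Its log2 fold change was -2.75 ± 0.45 (SE; edgeR adjusted p = 0.000711). As the choice required, every A28 and SW library was below every library of the other side.

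Higher in A28 and SW was BnaA07g27820D, on A7, at 27.1, 15.7 and 26.2 CPM in A28 and 15, 8.23 and 18 CPM in SW, against 4.69, 2.52 and 2.7 CPM in R8Q10 and 1.09, 2.96 and 1.88 CPM in YH25005 (log2 fold change 2.79 ± 0.31, SE; edgeR adjusted p = 3.84e-05). Line means fell from A28 over SW and R8Q10 to YH25005, and the choice required no overlap between the sides. Brassica_napus_newGene_17783, a gene the authors added to the annotation, was at 253, 166 and 730 CPM in A28 and 177, 207 and 195 CPM in SW, against 58, 42.3 and 106 CPM in R8Q10 and 12.7, 65.2 and 25 CPM in YH25005. Its log2 fold change was 2.48 ± 0.47 (SE; edgeR adjusted p = 0.00208). The crossed contrast SW minus R8Q10 gave 1.49 ± 0.65 and did not pass (adjusted p = 0.127). It lost the call in 1 of the pairs without A28 replicate 3, R8Q10 replicate 1, R8Q10 replicate 2, YH25005 replicate 1 or YH25005 replicate 3 (adjusted p between 0.0628 and 0.0943) and in the fit of A28 and R8Q10 alone (0.0532).

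Above 16-fold, 685 genes passed in both pairs, 338 higher and 347 lower in A28 and SW. Only 12 of them had at least 1 CPM in all 12 libraries, and 125 had at most 3 counts over the 6 libraries of 1 side, 58 of them higher and 67 lower. BnaAnng29540D, an A gene without a placed chromosome, was at 85.1, 29.8 and 103 CPM in A28 and 26.7, 23.7 and 22.4 CPM in SW and had 0 counts in all 6 libraries of R8Q10 and YH25005. It was at least 3693-fold higher in A28 and SW, with 3 counts over the 6 empty libraries as the floor. Brassica_napus_newGene_17846 was at 23.1, 19.2 and 49.2 CPM in A28 and 19.2, 17.8 and 18.9 CPM in SW, while R8Q10 and YH25005 had 0 counts in all 6 libraries, at least 1804-fold higher.

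In the other direction BnaC04g08330D, on C4, had 0 counts in A28 and SW, against 29.9, 25 and 20.3 CPM in R8Q10 and 26.6, 20.6 and 31 CPM in YH25005, at least 1635-fold lower. BnaC06g40300D, on C6, had 0 counts in A28 and SW, against 21.1, 22.2 and 27.5 CPM in R8Q10 and 26.7, 21 and 27.3 CPM in YH25005, at least 1544-fold lower. These folds use library totals without TMM factors. The R8Q10 and YH25005 levels overlapped in both genes.

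Calls in both pairs were found at every level of expression. The 4 called genes of the highest class were all lower, and their levels in YH25005 alone placed them there. By mean CPM over the 12 libraries, 6.2% of the 22731 genes at 1 to 10 CPM, 5.7% of the 19554 at 10 to 100 CPM and 9.08% of the 1288 at 100 to 1000 CPM were called. Moderate genes were 2.15%, 3.26% and 4.5% of the same classes. In the class of 100 to 1000 CPM, 75 genes were higher and 42 lower. These classes follow read numbers, which grow with gene length. By mean FPKM, which corrects for length, the shares were 5.7%, 6.63% and 8.87% for 1 to 10, 10 to 100 and 100 to 1000 FPKM.

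Of the 31 genes at 1000 CPM and over, 4 were called in both pairs, all lower in A28 and SW. These 4 are named after their values were seen. Their line means passed 1000 CPM in YH25005 only, so their place in this class rests on that line. BnaC01g09900D, on C1, was at 0, 1 and 8.74 CPM in A28 and 25.3, 212 and 8.22 CPM in SW, against 255, 632 and 23.1 CPM in R8Q10 and 35130, 18025 and 33764 CPM in YH25005. BnaA10g02240D averaged 2.98 ± 3.02 CPM in A28 and 33.7 ± 35.9 CPM in SW, against 227 ± 216 CPM in R8Q10 and 21329 ± 6940 CPM in YH25005 (SD, n = 3 each). The line order was the same for BnaC01g19310D (20.2 ± 26.8 CPM in A28 and 315 ± 284 CPM in SW, against 634 ± 671 CPM in R8Q10 and 17775 ± 5962 CPM in YH25005). It was the same for BnaA01g08350D, which averaged 8.05 ± 9.15 CPM in A28 and 44.2 ± 56.3 CPM in SW, against 266 ± 241 CPM in R8Q10 and 11333 ± 3088 CPM in YH25005.

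In these 4 genes YH25005 stood apart and the sides overlapped, since R8Q10 replicate 3 was below SW replicate 2. R8Q10 minus YH25005 passed for each of them, at log2 fold changes between -6.58 and -4.81 (edgeR adjusted p between 0.0199 and 0.0411). SW minus R8Q10 passed for none (adjusted p between 0.173 and 0.635). The call in both pairs survived 9 of 12 omissions of a library for BnaA01g08350D (not A28 replicate 1, A28 replicate 3 or R8Q10 replicate 2). It survived 4 for BnaC01g09900D (A28 replicate 3, SW replicate 2, SW replicate 3 and R8Q10 replicate 3), 3 for BnaA10g02240D (SW replicate 2, SW replicate 3 and R8Q10 replicate 3) and 3 for BnaC01g19310D (A28 replicate 2, SW replicate 2 and R8Q10 replicate 3). None of the 4 passed in both pairs when each pair was fitted alone. With the replicate number as a block over all lines, A28 minus R8Q10 missed the threshold for BnaA10g02240D (edgeR adjusted p = 0.107) and BnaC01g09900D (0.0919). Together they held 4.64% to 7.31% of all counts in YH25005 and at most 0.34% in the other 9 libraries.

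The genes called higher in both pairs held 4.94% to 5.77% of the counts in A28 and 6.17% to 7.68% in SW, against 1.34% to 1.58% in R8Q10 and 1.26% to 1.83% in YH25005. Genes called lower, without the 4 abundant ones, held 0.824% to 1.1% in A28 and 1.03% to 1.19% in SW, against 3.61% to 3.89% in R8Q10 and 4.46% to 5.09% in YH25005. These sums follow from how the genes were chosen and carry no test.

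By subgenome, higher genes were more frequent in A and about as frequent as lower genes in C. Of 20131 A genes, 3.94% were higher and 2.56% lower in both pairs, and of 21394 C genes 2.54% were higher and 2.81% lower. Among genes with at least 1 CPM in all 12 libraries the shares were 3.03% and 1.71% in A and 2.02% and 1.75% in C. Chromosome A10 was the most uneven, with 110 of 1489 genes higher (7.39%) and 15 lower (1.01%). Without A10, 3.67% of A genes were higher and 2.68% lower.

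**Figure D4:**
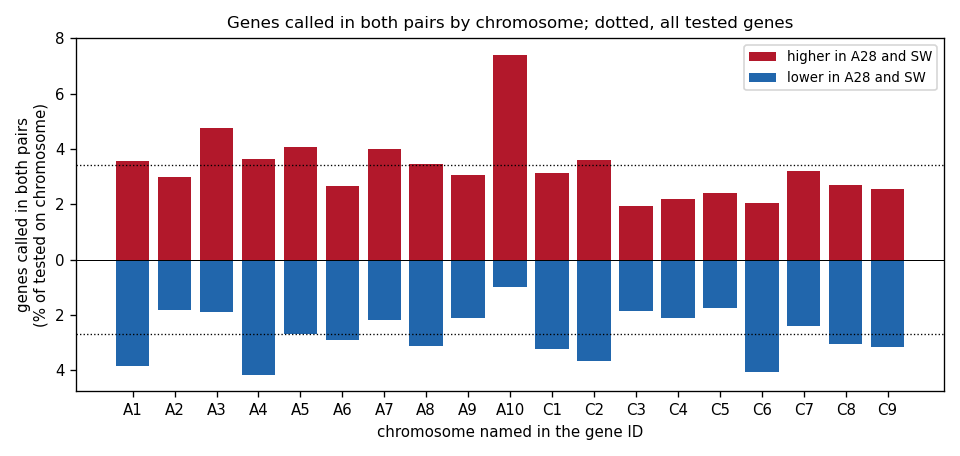
Percent of the tested genes of each chromosome (x axis, as named in the gene ID) that were called in both pairs, higher in A28 and SW above 0 and lower below it, with the shares over all genes (3.41% and 2.68%) as dotted lines. A10 reaches 7.39% higher, and A4 (4.19%) and C6 (4.06%) have the largest shares of lower genes.

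On A10 the pairs were far apart in size. A28 minus R8Q10 passed for 750 higher genes there (50.4%) and 78 lower ones (5.24%), against 12% and 9.63% of all tested genes. SW minus YH25005 passed for 241 higher (16.2%) and 146 lower genes (9.81%), against 13.6% and 13.1% of all. In the averaged contrast 517 A10 genes were higher, of which 64.6% passed in A28 minus R8Q10 only, and the difference between the pairs passed its test for 76% of them. Even among the 110 genes higher in both pairs, the median log2 fold change was 7.07 in A28 minus R8Q10, with lines at 0 counts set to their floor, and 1.60 in SW minus YH25005. Elsewhere in the genome the genes higher in both pairs had medians of 1.89 and 1.99. R8Q10 had 0 counts in 49 of the 110 genes. Of the 110, 82 lay in 14 bins of neighbouring A10 genes in which the median of R8Q10 was more than 2 below the mean of the lines on the log2 scale, 13 of these bins in a row from BnaA10g12850D to BnaA10g25410D and the other at the end of the chromosome's IDs. These bins were picked after their values were seen. Over all 689 genes of the 14 bins the median level was 10.7 CPM in A28 and 10.4 CPM in SW, against 0.015 CPM in R8Q10 and 9.29 CPM in YH25005. There R8Q10 stood apart from all other lines, and the median log2 fold change of SW minus YH25005 was 0.12. In these 14 bins 11.9% of the 689 genes were higher and 0.145% lower in both pairs. SW minus YH25005 taken alone was higher for 13.6% of all tested genes. In the rest of A10, 3.5% of 800 genes were higher and 1.75% lower in both pairs.

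Chromosome A3 had 134 higher (4.74%) and 54 lower genes (1.91%), A7 72 (4.01%) and 39 (2.17%), C6 36 (2.06%) and 71 (4.06%). Moderate genes with at least 1 CPM in all 12 libraries were also uneven on A3, where 67 (2.37%) were higher and 19 (0.673%) lower, and on A7, where 37 (2.06%) were higher and 10 (0.557%) lower, against 1.36% and 1% of all tested genes. They were more often higher than lower on 15 of the 19 chromosomes. The 4 others were A1, with 20 higher and 30 lower, C6 with 14 and 20, C9 with 27 and 36, and C1 with 17 and 22.

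Few bins held many calls, and those of the low R8Q10 block of A10 held at most 9 higher genes each. Of 750 bins of 50 neighbouring genes in ID order, the median bin held 2 genes called in both pairs, 62 held 0, and 3 held at least 10 in 1 direction. Outside those 3 bins 2612 of the 2661 calls remained. The densest was a stretch of C6, where 25 of 26 consecutive tested genes, from BnaC06g40240D to BnaC06g40720D, were lower in both pairs. Their median log2 fold change was -4.60 in A28 minus R8Q10 and -4.58 in SW minus YH25005, and -4.63 and -4.68 in the crossed contrasts. The sides did not overlap in any of the 25, against 76.2% of all genes called in both pairs and 8.2% of all tested genes. The stretch was marked off by its called genes after their values were seen. Its counts and medians are therefore a description. In the 9 tested genes before the stretch A28 minus R8Q10 passed for 8, all higher, and SW minus YH25005 for 1 higher and 1 lower. In the 15 genes after it within the bin, A28 minus R8Q10 passed for 4, all higher, and SW minus YH25005 for 2 higher and 2 lower.

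**Figure D5:**
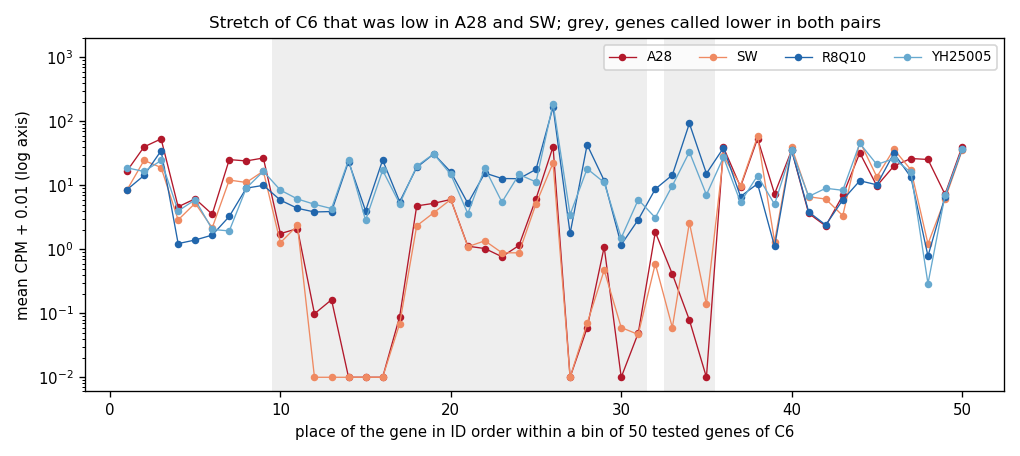
Mean CPM + 0.01 per line (log y axis) along 50 neighbouring tested genes of C6 in ID order (x axis), with genes called lower in both pairs shaded. The A28 and SW lines drop together over the shaded stretch, to 0 CPM in genes such as BnaC06g40300D. Outside it 0 of the plotted genes were called lower in both pairs, and A28 lies above R8Q10 in each of the 9 genes before it.

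Within the C6 stretch the depth of the drop differed between genes. BnaC06g40530D, the most abundant, averaged 40.3 CPM in A28 and 22.4 CPM in SW, against 168 CPM in R8Q10 and 190 CPM in YH25005. BnaC06g40570D averaged 0.0493 CPM in A28 and 0.0596 CPM in SW, against 43.2 CPM in R8Q10 and 18.2 CPM in YH25005. Both IDs were picked after their values were seen. The sources used here do not state how the authors' counting assigned reads that match both homoeologues, so reads from another copy in the remaining signal cannot be told apart from reads of these genes.

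Parts of A7 are homoeologous to parts of C6. In the bin of A7 genes from BnaA07g35330D to BnaA07g36260D, 8 of 50 genes were higher in both pairs and 0 lower. The bin was picked after its values were seen and held the most higher calls of the 36 A7 bins, so its count supports nothing, and 8 of the 750 bins, itself included, held as many or more. Over all 50 the median log2 fold change was 1.00 in A28 minus R8Q10 and 0.72 in SW minus YH25005. The 8 genes had medians of 20.1 CPM in A28 and 12.7 CPM in SW, against 7.7 CPM in R8Q10 and 4.26 CPM in YH25005. Whether these genes are the homoeologues of the C6 stretch was not tested.

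A second run of lower genes lay on C1, where 11 of 20 consecutive genes from BnaC01g06250D to BnaC01g06510D were lower in both pairs. The run was marked off by its called genes after their values were seen. BnaC01g06510D is the last gene of its bin, so where the run ends was not examined. The bin also held 1 gene higher in both pairs and 2 called with opposite signs. The 11 lower genes had medians of 2.66 CPM in A28 and 0.848 CPM in SW, against 18.6 CPM in R8Q10 and 15.7 CPM in YH25005. In each of the 11 the sides did not overlap, against 76.2% of all genes called in both pairs. At the start of A3, 10 of 50 genes were higher in both pairs and 0 lower. The sides did not overlap in only 3 of these 10. The bin's median log2 fold change there was 0.42 in A28 minus R8Q10 and 1.01 in SW minus YH25005, and SW alone stood well above the mean of the lines (median deviation 0.68 in SW and -0.12 in A28, against -0.48 in R8Q10 and -0.09 in YH25005).

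The pairs also differed from each other in many genes. The test of A28 minus R8Q10 against SW minus YH25005 passed for 9026 genes (20.7%; edgeR, adjusted p under 0.05). Among the 2661 genes called in both pairs with the same sign it passed for 479, 18%, a share near that of all tested genes. Of the 1034 moderate genes with at least 1 CPM in all 12 libraries it passed for 59, 5.71%. To enter, these genes had to pass in both pairs with the same sign and a limited mean size. That favours like values, so the low share is a description.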

How the data were processed

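Poly-A RNA of 12 seed samples was sequenced as read pairs with a kit whose protocol, per the labels, does not mention strand, so reads of a gene and of an antisense gene overlapping it are not separable. bcl2fastq, HISAT2 and DESeq2 are listed, per the submitters' processing notes, with no version. Build, annotation and counting program: not given in the sources used here. Per the file headers, each deposited table holds read counts and FPKM per gene. Counts deposited by the authors were tested, and FPKM deposited by the authors served only for level classes and a check of gene lengths. The lists held 47207 genes (A28, R8Q10) and 46839 genes (SW, YH25005). The 3499 and 3131 genes of 1 list only were not tested.

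The main test was the quasi-likelihood F test of edgeR 4.0.16, run in R 4.3.3 (TMM, filterByExpr, 1 coefficient per line, all 12 libraries, Benjamini-Hochberg, threshold 0.05). Library sizes summed the counts of every gene in a file. CPM are TMM-scaled, and SE was derived from the F statistic. Line means for the gap between lines used log2(CPM + 0.1). A count of 0 allows 3 counts, and such floors cover counting error only. DESeq2 1.42.0 and limma 3.58.1 gave alternatives. The procedure was tested on simulated data.

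Named genes were those called in both pairs with no overlap between the sides: the 2 higher and 2 lower with the highest mean CPM among moderate genes, the largest fold above 16-fold with a mean of at least 10 CPM, and the closest pair contrasts at 4-fold to 16-fold. The division, lists and rules were chosen with earlier results of these data known. Of 2093 added genes, 531 had at least 100 counts in all libraries, and 97% of these had lengths within 10% between the lists. Brassica_napus_newGene_17783 was among those checked, Brassica_napus_newGene_17846 was not.

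Same-numbered libraries deviated together for A28 and R8Q10 (correlations 0.118 to 0.581 over 3 numbers) but not over all lines (-0.298 to 0.581 over 18), so the block was applied to that pair only, and to all lines as an alternative. Omitted libraries, other scalings and filters were tried as alternatives.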

Additional observations from a re-analysis of the deposited data

Results flagged for a closer look

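Among 28 sets of 6 libraries examined for the named genes, 5 held a library far from the rest, where chance gives about 1 in 20. BnaC03g78280D was lowest in R8Q10 replicate 2, at 339 CPM where the next of R8Q10 and YH25005 was 456 CPM. A28 replicate 3 was highest for Brassica_napus_newGene_17846, at 49.2 CPM with 23.1 CPM next, and for Brassica_napus_newGene_17783, at 730 CPM with 253 CPM next. SW replicate 2 was highest for BnaA01g08350D, at 109 CPM with 18.4 CPM next, and for BnaC01g09900D, at 212 CPM with 25.3 CPM next. The sets join lines, so a library can also stand out where its line does.

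Of the genes called in both pairs with the same sign, 479 differed in the size of A28 minus R8Q10 and SW minus YH25005 (edgeR test of the difference, adjusted p under 0.05), 18% where all tested genes gave 20.7%. Of the 479, 284 were higher and 195 lower in A28 and SW.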

How the results depend on the processing

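The averaged contrast gave 0 genes with counts summed per line and 332 in limma-voom with the line as a random block, against 11681. It gave 4913 without line terms, where the 6 libraries of a side count as replicates. Only genes of at least 1 CPM in all libraries gave 7385 for the averaged contrast, 1327 for both pairs and 4647 for the difference between pairs, since fewer genes were tested. DESeq2 gave 1900 moderate genes against 1188 (the cause was not tested). Leaving out each library in turn gave 9672 to 13553 for the averaged contrast, 1952 to 3373 for both pairs, 717 to 1524 for moderate genes and 7112 to 9530 for the difference, with more higher than lower genes in both pairs each time. The replicate block gave 12181, 2734, 1251 and 9139 over all lines, and 3053 in both pairs with each pair fitted alone and the block in that of A28 and R8Q10. The library totals, the block for 1 pair and the count outside dense bins (2612) were chosen after seeing the data. In the averaged contrast the 16 named IDs kept their direction in all 329 available combinations of ID and setting. They passed in the 281 of these that did not change the unit of replication. The 329 leave out BnaC01g19310D in DESeq2, which returned no adjusted p for it, so 15 of the 16 IDs count there. Only 10 of the 16 count in the fit of genes of at least 1 CPM in all libraries. With summed counts all 16 missed the threshold, with the random block 12, and without line terms 1. They were picked among called genes, which favours this.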
